A study of Caenorhabditis elegans with 8 samples.

Results

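The genes described here build the apical side of the *C. elegans* intestine, where the cells face the gut lumen. They are *act-5*, *ifb-2*, *ifc-2*, *ifd-1*, *ifd-2*, *ifp-1*, *erm-1* and *eps-8*. They were chosen by name, and each was represented by its transcript with the highest mean raw count. They make up 8 of the 50606 RefSeq transcripts counted, and 7 of the 8 were among the 14328 transcripts with enough reads to be tested. RNA-seq had been done on 4 libraries of *ztf-11* KD embryos and 4 libraries of control embryos, each from an independent culture. ZTF-11 is the Myt1 family zinc finger protein of the worm, and the comparison asks which transcripts differ when it is depleted. Mothers of strain TV23837 ate bacteria with double-stranded RNA against *ztf-11*, or bacteria with the empty vector L4440, for 64 h at 20 °C, and their eggs were then left in M9 for 3 h to reach gastrula stages. Every library of both groups carried *ztf-11(wy1100)*, a floxed allele with a GFP fusion and loxP sites made at the endogenous locus. All also carried *eri-1(mg366)*, which makes worms more sensitive to RNAi, and the transgenes *oxIs322* and *ynIs49*. The RNA came from whole embryos of all tissues, so the intestine was one source among many, and no dissection or sort enriched it.

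The worm intestine is a tube of epithelial cells that all descend from a single blastomere, and its lumen is lined by a brush border of microvilli. ACT-5 is the actin of these microvilli. ERM-1, the only ezrin-radixin-moesin protein of the worm, ties actin to the apical membrane, and EPS-8 binds actin in the microvillus. Below the microvilli lies the endotube, a sheath of intermediate filaments in which IFB-2 pairs with partners that include IFC-2, IFD-1, IFD-2 and IFP-1. ACT-5 and ERM-1 also line the lumen of the excretory canal.

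The counts added up to between 39343105 and 44933700 in *ztf-11* KD libraries and to between 39494873 and 45609675 in control libraries. Levels are given as CPM, which are counts scaled to the size of each library after TMM normalization. The targeted gene, *ztf-11*, lay between 9.42 and 14.7 CPM in *ztf-11* KD embryos and between 31.2 and 68.4 CPM in control embryos, with no overlap (log2 fold change -1.97, SE 0.27, edgeR adjusted p = 0.26). With edgeR's quasi-likelihood test, 0 of the 14328 transcripts had an adjusted p under 0.1, the threshold used throughout. At an unadjusted p under 0.05 there were 1261 transcripts higher in *ztf-11* KD embryos and 571 lower (994 and 873 when scaled by library totals alone), and DESeq2 called 444 at the same threshold of 0.1. No library was a copy of another, since the chi-square between libraries of the same group was at least 31.0 per degree of freedom. The control replicate 2 library stood apart: its summed early zygotic markers came to 989 CPM, against 274 to 409 CPM in the other 7 libraries.

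The counts were made per transcript, and the genes differ in how many transcripts they have. In the annotation of assembly WBcel235, *act-5* (chromosome III), *ifd-1*, *ifd-2* and *ifp-1* (all on chromosome X) have 1 transcript each. The other 4 genes have several transcripts that share most of their exons. For *ifb-2* (chromosome II) 5.45% of the exonic bases belong to a single transcript, for *ifc-2* (chromosome X) 4.78%, for *erm-1* (chromosome I) 9.19% and for *eps-8* (chromosome IV) 16.3%. Low counts were common among such genes. Of 8885 protein-coding transcripts from genes with several transcripts, 80.9% had a mean under 10 counts, against 28.7% of 14595 transcripts from genes with 1. How reads on shared exons were counted is not given in the sources used here, so the levels of *ifb-2*, *ifc-2*, *erm-1* and *eps-8* cannot be set against those of the other genes.

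The microvillar actin gene *act-5* had the highest level of the 4 genes with a single transcript. The *ztf-11* KD libraries held 2042, 2633, 1207 and 2581 CPM of *act-5* in replicates 1 to 4, and the control libraries 1101, 507, 1440 and 847 CPM. *ztf-11* KD replicates 1, 2 and 4 lay above every control, while *ztf-11* KD replicate 3 lay below control replicate 3. The means were 2116 ± 662 CPM in *ztf-11* KD embryos and 973 ± 395 CPM in control embryos (SD, n = 4 each). The log2 fold change of *act-5* was 1.120 (SE 0.33, 95% confidence interval 0.37 to 1.87). This did not pass the threshold in edgeR (adjusted p = 0.37), while DESeq2 called it higher (adjusted p = 0.060). In libraries of whole embryos, more intestinal cells and more of a transcript per cell cannot be told apart, here or for the genes below.

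Of the intermediate filament genes, *ifp-1* and *ifd-2* had the most reads. For *ifp-1*, *ztf-11* KD libraries 1 to 4 held 635, 752, 372 and 727 CPM, and the controls 370, 215, 432 and 307 CPM. As for *act-5*, replicate 3 was the lowest *ztf-11* KD library and replicate 2 the lowest control, and the groups overlapped through *ztf-11* KD replicate 3. The log2 fold change of *ifp-1* was 0.91 (SE 0.26, 95% confidence interval 0.33 to 1.49), with an adjusted p of 0.36 in edgeR and 0.080 in DESeq2.

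*ifd-2* was the one gene of the set whose groups did not overlap, a pattern found in the higher direction for 3.61% of all transcripts tested. Its levels were 210, 229, 159 and 200 CPM in *ztf-11* KD embryos and 142, 74.3, 121 and 114 CPM in control embryos. The lowest *ztf-11* KD library, replicate 3, was thus above the highest control, replicate 1. The means of *ifd-2* were 200 ± 29.2 CPM in *ztf-11* KD and 113 ± 28.5 CPM in control embryos (SD, n = 4 each), and the log2 fold change was 0.82 (SE 0.20, 95% confidence interval 0.38 to 1.26). edgeR gave it an adjusted p of 0.36, and DESeq2 called it higher with an adjusted p of 0.049.

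*ifd-1*, the other IFD filament gene, was far scarcer, and its log2 fold change was smaller. It had 22.4, 20.7, 16.5 and 23.6 CPM in *ztf-11* KD embryos and 23.04, 9.46, 18.7 and 15.5 CPM in control embryos. Only control replicate 2 stood below every *ztf-11* KD library by more than a few CPM, and the groups overlapped. The log2 fold change was 0.32 (SE 0.26) with a 95% confidence interval of -0.26 to 0.90, and the adjusted p was 0.56 in edgeR and 0.63 in DESeq2.

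Divided by transcript length, the 4 genes with a single transcript kept the order *act-5*, *ifp-1*, *ifd-2*, *ifd-1* in 8 of 8 libraries. *act-5* averaged 1666 ± 521 CPM per kb in *ztf-11* KD embryos and 767 ± 311 in control embryos (SD, n = 4 each). *ifp-1* averaged 243 ± 68.1 CPM per kb in *ztf-11* KD embryos and 130 ± 36.3 in control embryos, and *ifd-2* 132 ± 19.3 in *ztf-11* KD embryos and 74.6 ± 18.8 in control embryos. *ifd-1* reached 10.8 ± 1.604 CPM per kb in *ztf-11* KD embryos and 8.65 ± 2.96 in control embryos. The difference in level between *ifd-2* and *ifd-1* was thus larger than that between the groups for either gene.

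*ifb-2*, the shared partner of the endotube filaments, was counted too rarely to be read in detail. Its transcript held 49, 29, 7 and 30 counts in *ztf-11* KD libraries and 4, 0, 12 and 1 counts in control libraries, and its other 2 transcripts held none. *ztf-11* KD replicate 3 lay below control replicate 3, so the groups overlapped. The log2 fold change of *ifb-2* was 2.82 with an SE of 1.03 (edgeR adjusted p = 0.38, DESeq2 adjusted p = 0.13), and 4.06 without control replicate 3. It passed the filter on low counts mainly through the *ztf-11* KD libraries, 3 of which had at least 29 counts, so its direction carries little weight. *ifc-2* had 1 count, in *ztf-11* KD replicate 2, and none in the other 7 libraries, and was not tested. Only 1 of its 6 RefSeq transcripts was among those counted, so this says nothing of the gene as a whole.

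**Figure D1:**
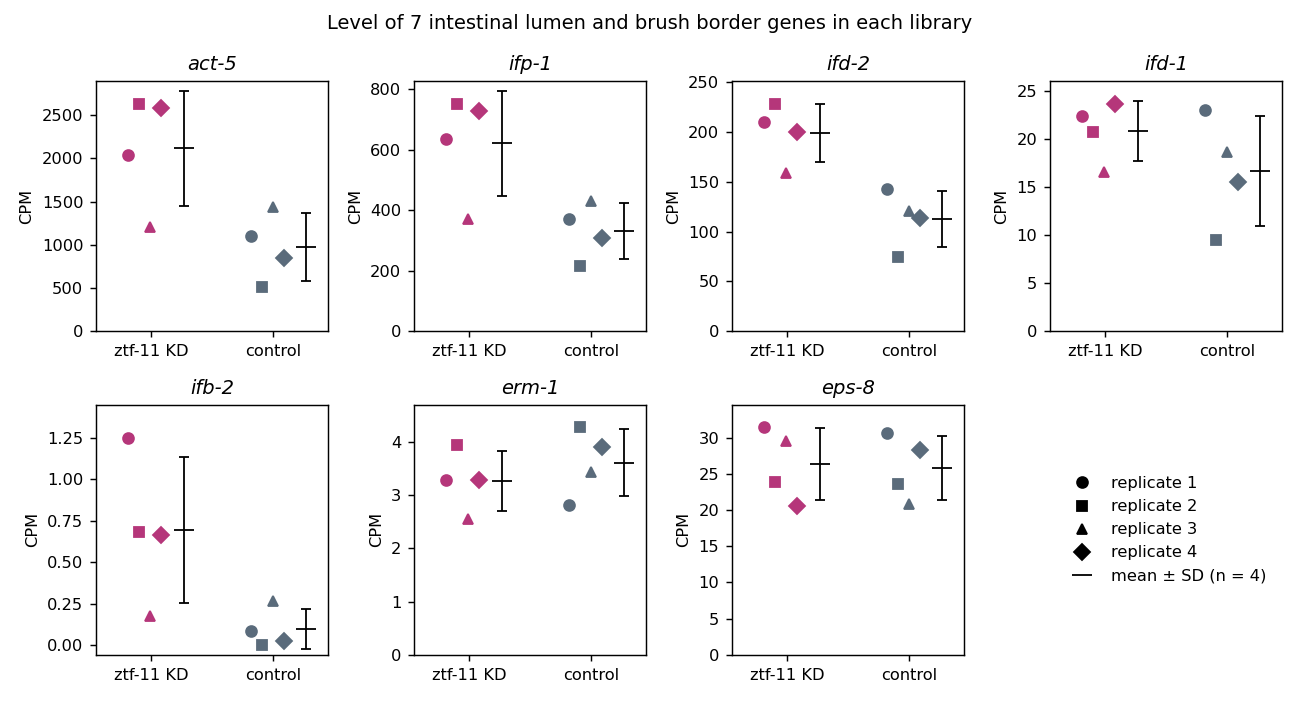
Level of the 7 tested genes in each library, in CPM on a linear axis, with *ztf-11* KD libraries on the left of each panel and control libraries on the right. Marker shapes give the replicate number and the bar beside each group the mean ± SD (n = 4); only *ifd-2* has all 4 *ztf-11* KD libraries above all 4 controls, and replicate 3 is the lowest *ztf-11* KD library in every panel but that of *eps-8*.

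The counted transcripts of the linker gene *erm-1* and the actin regulator gene *eps-8* showed no such pattern. Both genes have several transcripts that share most of their exons, so these values may not stand for the whole gene. *erm-1* had 3.29, 3.94, 2.55 and 3.28 CPM in *ztf-11* KD embryos and 2.82, 4.27, 3.43 and 3.90 CPM in control embryos, from 102 to 167 counts a library in *ztf-11* KD and 129 to 180 in control embryos. The groups lay across each other, and the log2 fold change was -0.14 (SE 0.27, 95% confidence interval -0.74 to 0.45, edgeR adjusted p = 0.81). *eps-8* had 31.4, 23.9, 29.5 and 20.5 CPM in *ztf-11* KD embryos and 30.6, 23.6, 20.8 and 28.3 CPM in control embryos. Its log2 fold change was 0.028 (SE 0.19), and the 95% confidence interval of -0.40 to 0.46 leaves room for a change of either sign. Left-out libraries turned the sign of *eps-8*, with values between -0.082 and 0.12 (edgeR). Of the 10 counted transcripts of *eps-8*, 9 held no reads.

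In all, 6 of the 7 tested genes had a positive log2 fold change and 1 (*erm-1*) a negative one, where 49.2% of all tested transcripts were positive. edgeR called 0 of the 7, against 0% of all transcripts. At an unadjusted p under 0.05, *act-5*, *ifb-2*, *ifd-2* and *ifp-1* were higher in *ztf-11* KD embryos, 4 of 7, and none was lower, against 8.8% of all transcripts in the higher direction. Leaving *ifb-2* aside, 5 of 6 were positive and 3 of 6 had an unadjusted p under 0.05, with a median of 0.57. When control replicate 2 was left out, 5 of the 7 were positive, with a median of 0.65. With *ifb-2* also set aside, 4 of 6 were positive, with a median of 0.38. The median over all transcripts was then -0.0063. DESeq2 called *act-5*, *ifd-2* and *ifp-1*, 3 of 7, against 2.45% of the 16066 transcripts it tested. The median log2 fold change was 0.82 over the 7 genes and -0.0088 over all transcripts, of which the middle 50% lay between -0.28 and 0.38. With at least 10 counts required in every library, *ifb-2* was not tested and the median over the remaining genes was 0.58. The DESeq2 calls changed when single libraries were left out. Without *ztf-11* KD replicate 1, 2 or 4, or without control replicate 4, DESeq2 called 0 of these genes. Over all transcripts its calls then numbered 68 to 128. Without *ztf-11* KD replicate 3 or control replicate 3 it called 4 of these genes, the fourth being *ifb-2*. Its calls over all transcripts were then 1139 and 1685. Without control replicate 1 it called 2, and without control replicate 2 it called 3. Across these fits the DESeq2 log2 fold change lay between 0.90 and 1.34 for *act-5* and between 0.66 and 0.94 for *ifd-2*.

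**Figure D2:**
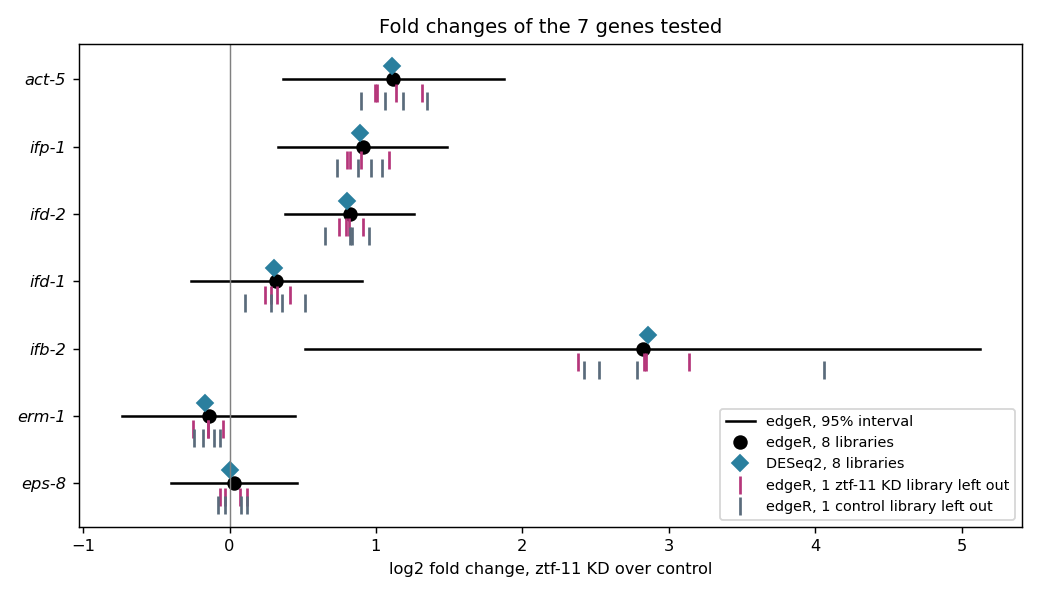
Log2 fold change (*ztf-11* KD over control) of the 7 tested genes, with black points and lines the edgeR values and 95% confidence intervals, diamonds the DESeq2 values, and ticks the edgeR values with 1 library of either group left out. *act-5*, *ifp-1* and *ifd-2* have intervals above 0, as has *ifb-2*, which passed the filter mainly through the *ztf-11* KD libraries, those of *ifd-1*, *eps-8* and *erm-1* include 0, and no gene passed an adjusted p of 0.1 in edgeR.

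The libraries that were high for *act-5* were also high for *ifp-1*, *ifd-2* and *ifb-2*, while *ifd-1* was high in control replicate 1 as well (23.04 CPM). Summed over the set, the *ztf-11* KD libraries held 2944, 3662, 1787 and 3557 CPM and the control libraries 1669, 834, 2036 and 1315 CPM. Most of this sum was *act-5* itself, which averaged 2116 of 2988 CPM in *ztf-11* KD and 973 of 1463 CPM in control embryos. Across the 8 libraries, the log2 level of *ifd-2*, *ifp-1*, *act-5*, *ifb-2* and *ifd-1* had Pearson correlations of 0.97, 0.96, 0.95, 0.93 and 0.86 with the mean profile of the tested genes, to which each gene itself contributes. *eps-8* (0.06) and *erm-1* (-0.20) did not follow it. These correlations describe 8 libraries that share their depth scaling and their group structure.

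Ratios of raw counts within a library do not depend on the scaling between libraries. They were chosen after seeing the data, and 13 were computed. The ratio of *ifd-2* to *ifd-1* was 9.38, 11.06, 9.63 and 8.47 in *ztf-11* KD embryos and 6.18, 7.85, 6.48 and 7.33 in control embryos. Every *ztf-11* KD library was above every control, which held for 2 of the 13 ratios, and the ratios were not tested. Both have *ifd-2* as numerator, whose own levels did not overlap, so they are not independent of that result. For *act-5* over *ifp-1* the groups overlapped, at 3.22, 3.50, 3.25 and 3.55 in *ztf-11* KD embryos and 2.98, 2.36, 3.33 and 2.76 in control embryos.

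The other ratio without overlap was that of *ifd-2* to *elt-2*, the GATA factor gene that marks intestinal cells. It was 3.09, 3.33, 2.41 and 3.02 in *ztf-11* KD embryos and 2.22, 1.03, 2.00 and 1.55 in control embryos. *elt-2* itself had 67.3 ± 1.19 CPM in *ztf-11* KD embryos and 67.5 ± 6.08 CPM in control embryos (SD, n = 4 each). Its log2 fold change was -0.0041, with a 95% confidence interval of -0.26 to 0.25. *act-5* over *elt-2* was 30.1, 38.3, 18.2 and 38.9 in *ztf-11* KD embryos and 17.1, 7.06, 23.8 and 11.6 in control embryos. Here *ztf-11* KD replicate 3 was again below control replicate 3.

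**Figure D3:**
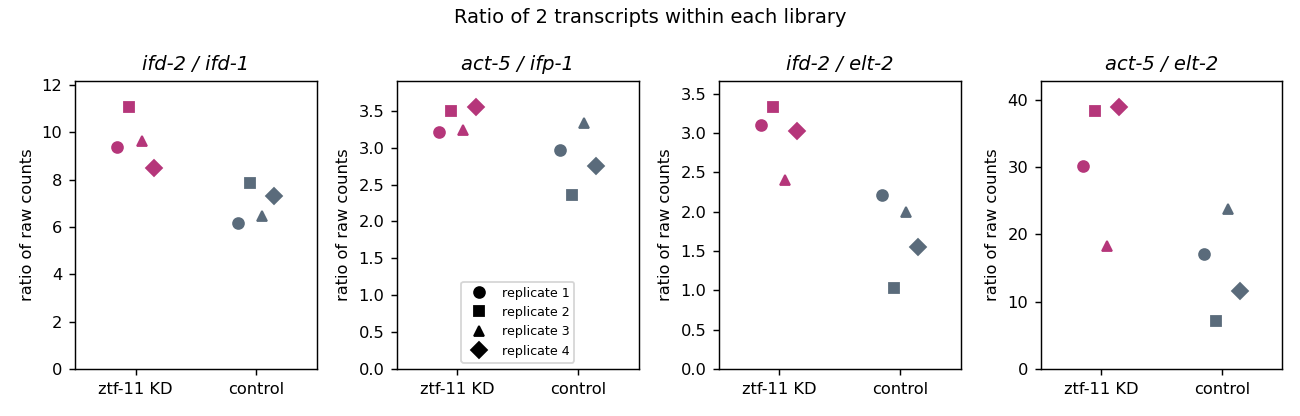
Ratio of the raw counts of 2 transcripts in each library, on linear axes that start at 0, with *ztf-11* KD libraries on the left and control libraries on the right of each panel. The groups do not overlap for *ifd-2* over *ifd-1* and for *ifd-2* over *elt-2*, and overlap for *act-5* over *ifp-1* and *act-5* over *elt-2*. The levels of *ifd-2* alone do not overlap either.

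A further list held intermediate filament genes, genes whose products work with the filaments, and junction genes. Its junction genes *let-413*, *ajm-1* and *dlg-1* had log2 fold changes between 0.05 and 0.06, and its other genes values between 0.79 and 1.91. This split of the list was not planned. All 8 genes of this list were tested and 8 were positive, against 49.2% of all transcripts. Without *ztf-11* KD replicate 3 or control replicate 2, 6 were positive, and without *ztf-11* KD replicate 4 or control replicate 3, 7 were. Of the 8, 4 had an unadjusted p under 0.05 in the higher direction, against 8.8% of all transcripts, 0 were called by edgeR, and the median was 0.87. Without single libraries 2 to 5 of them had an unadjusted p under 0.05, with 2 without control replicate 2 or 4 or *ztf-11* KD replicate 2 or 4. *ifo-1*, which organises the intestinal filaments, had 1055, 1288, 577 and 1504 CPM in *ztf-11* KD embryos and 570, 307, 719 and 514 CPM in control embryos. *ztf-11* KD replicate 3 was again the low library of its group and lay among the controls (log2 fold change 1.07, SE 0.32, edgeR adjusted p = 0.37, DESeq2 adjusted p = 0.069). *ifa-4*, another intermediate filament gene, averaged 125 ± 48.6 CPM in *ztf-11* KD and 55.7 ± 15.4 CPM in control embryos (SD, n = 4 each), and its log2 fold change was 1.17 (SE 0.32, edgeR adjusted p = 0.36, DESeq2 adjusted p = 0.037). *bbln-1*, whose product keeps the filament sheath in shape, averaged 278 ± 90.5 CPM in *ztf-11* KD and 160 ± 51.6 CPM in control embryos, with a log2 fold change of 0.79 (SE 0.29). *dlg-1*, a scaffold of the apical junction, differed least of those named, at 1701 ± 100.3 CPM in *ztf-11* KD and 1634 ± 143 CPM in control embryos (log2 fold change 0.06, SE 0.10). In a separate list of other intermediate filament genes, the 3 tested were *mua-6*, *ifa-3* and *lmn-1*. None of them had an unadjusted p under 0.05, and the median was 0.12.

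Of 17 genes for actin and membrane linkers 14 were tested, with a median of 0.17. Of these, 3 had an unadjusted p under 0.05 in the higher direction (*nrfl-1*, *hum-5* and *frm-1*), against 8.8% of all transcripts. None was lower at that p. When *ztf-11* KD replicate 2 or 4 was left out, 0 of them had an unadjusted p under 0.05. *nrfl-1* encodes the scaffold that binds ERM-1, and had a log2 fold change of 1.07. The unconventional myosin genes *hum-5* and *hum-6* had log2 fold changes of 0.52 and 0.20, and *unc-60*, a cofilin gene, 0.21. Genes for apical polarity and membrane trafficking, 12 tested, had 0 at an unadjusted p under 0.05 and a median of -0.0040. Among them the clathrin gene *chc-1* had a log2 fold change of 0.18 and the GTPase gene *rab-11.1* one of 0.11. Of the other actin genes only *act-4* was tested, at a log2 fold change of -0.44 with all *ztf-11* KD libraries below all controls, as in 2.46% of transcripts tested. Its reads may be shared with near-identical actin genes, so this value is uncertain.

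**Figure D4:**
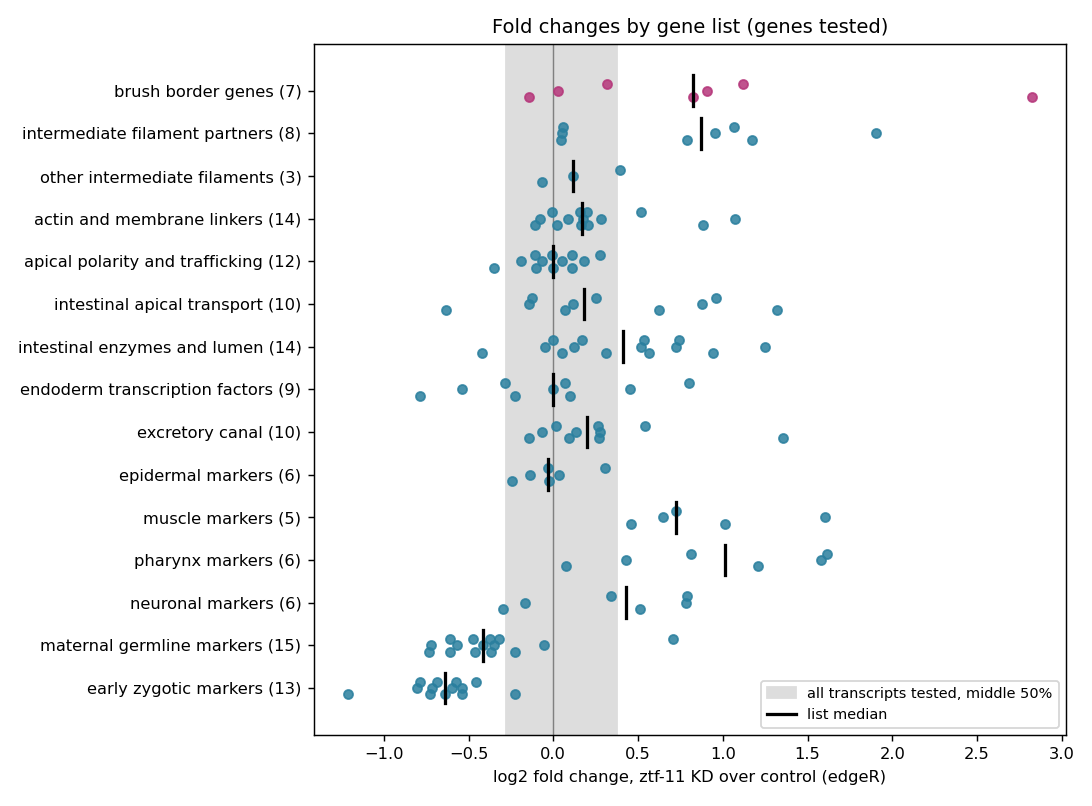
Log2 fold changes (*ztf-11* KD over control, edgeR) of the gene lists, with each point 1 tested transcript, the short black lines the list medians, numbers in brackets the transcripts tested, and the grey band the middle 50% of all transcripts tested. The brush border genes (median 0.82, or 0.57 without *ifb-2*) and the filament partners (0.87) lie above the lists of polarity and trafficking genes (-0.0040) and of endoderm factors (-0.0041). So do the pharynx markers (1.01) and the muscle markers (0.72), and the early zygotic markers (-0.64) lie below. Without control replicate 2 the medians are 0.65 for brush border genes, 0.70 for filament partners, 0.80 for pharynx, 0.57 for muscle and -0.19 for early zygotic markers. The endoderm and early zygotic lists share *end-1* (-0.79) and *end-3* (-0.54).

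Other genes of the intestine were mixed. Over 10 tested genes listed under apical transport, among them the desaturase gene *fat-2*, the median was 0.18. *vha-6*, *pgp-3* and *gtl-1*, 3 of the 10, had an unadjusted p under 0.05 in the higher direction, against 8.8% of all transcripts. The log2 fold change was 1.32 for *pgp-3* (DESeq2 adjusted p = 0.037) and 0.62 for *gtl-1* (DESeq2 adjusted p = 0.29). *vha-6*, the intestinal subunit of the proton pump, had 483, 562, 260 and 609 CPM in *ztf-11* KD embryos and 293, 157, 318 and 217 CPM in control embryos, and as for *act-5*, *ztf-11* KD replicate 3 and control replicate 2 were the lowest of their groups (log2 fold change 0.96, SE 0.29, edgeR adjusted p = 0.37, DESeq2 adjusted p = 0.094). The peptide transporter gene *pept-1* had a log2 fold change of 0.25 and the proton exchanger gene *nhx-2* one of 0.07. Genes listed as intestinal enzyme and lumen genes, 14 tested and not all of them digestive, had 0 at an unadjusted p under 0.05 in either direction and a median of 0.41. Among the 9 tested endoderm transcription factors, *nhr-57* and *pqm-1* had an unadjusted p under 0.05 in the higher direction, against 8.8% of all transcripts. Their log2 fold changes were 0.45 and 0.80, and the list median was -0.0041. Genes of the excretory canal, 10 of 12 tested, had a median of 0.20. *vha-5* and *vha-8* had an unadjusted p under 0.05 in the higher direction, against the same 8.8% of all transcripts. The proton pump gene *vha-5*, which acts there, had a log2 fold change of 0.54, with 529.1 to 673 CPM in *ztf-11* KD and 343 to 528.7 CPM in control embryos, so that the groups all but met.

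Pharynx and muscle markers were high and low in the same libraries as the brush border genes. The 8 listed pharynx markers summed to 1518, 2319, 852 and 2469 CPM in *ztf-11* KD embryos and to 772, 395, 1222 and 638 CPM in control embryos, and 5 of the 6 tested had an unadjusted p under 0.05 in the higher direction, against 8.8% of all transcripts (median 1.011). The muscle markers summed to 6164, 8341, 4213 and 8453 CPM in *ztf-11* KD embryos and to 4308, 2594, 4894 and 3913 CPM in control embryos, with 5 of 5 tested at an unadjusted p under 0.05 in the higher direction, against the same 8.8% (median 0.72). Without control replicate 2 these counts were 3 of 6 and 2 of 5, and the medians 0.80 and 0.57. They were also 3 and 2 when *ztf-11* KD replicate 2 or control replicate 4 was left out, and 3 and 3 when *ztf-11* KD replicate 4 was. For both lists *ztf-11* KD replicate 3 lay below control replicate 3, as for *act-5*. The epidermal markers summed to between 564 and 946 CPM in *ztf-11* KD and between 598 and 915 CPM in control embryos, and 6 tested ones had a median of -0.03. The neuronal markers summed to between 1340 and 1491 CPM in *ztf-11* KD and between 1306 and 2161 CPM in control embryos, with a median of 0.43 over 6. Most of these sums came from the tubulin gene *tbb-1*, at 1133 to 1288 CPM in *ztf-11* KD and 1133 to 2066 CPM in control embryos. The log2 fold change was -0.30 for *tbb-1* and -0.17 for *ric-19*, but 0.79 for *egl-21* and 0.78 for *egl-3*. None of the 12 epidermal and neuronal markers tested had an unadjusted p under 0.05. By the transcripts counted, the muscle markers *deb-1* and *lev-11*, the epidermal markers *dpy-10*, *elt-1*, *elt-3* and *sma-9*, and the neuronal marker *rgef-1* were at 0.

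Early zygotic and maternal transcripts had negative medians that rested largely on control replicate 2. Early zygotic markers summed to 331, 306, 409 and 274 CPM in *ztf-11* KD embryos and to 317, 989, 382 and 369 CPM in control embryos. Of 13 tested, 13 had a negative log2 fold change (median -0.64), against 7276 of all 14328 transcripts. At an unadjusted p under 0.05, 3 of the 13 were lower, against 571 of all 14328. Maternal germline markers summed to 831, 755, 774 and 487 CPM in *ztf-11* KD embryos and to 618, 1689, 791 and 692 CPM in control embryos, and 14 of 15 were negative (median -0.42). Without control replicate 2 the medians were -0.19 for the early zygotic and -0.025 for the maternal markers, with 0 at an unadjusted p under 0.05 in either list. The sums then averaged 330 CPM in *ztf-11* KD and 356 CPM in control embryos for the early zygotic markers, and 712 CPM in *ztf-11* KD and 700.3 CPM in control embryos for the maternal ones. Control replicate 2 was the lowest control for *act-5*, *ifp-1*, *ifd-2*, *ifd-1* and *ifb-2*. Without it, the log2 fold change was 0.90 for *act-5*, 0.74 for *ifp-1*, 0.65 for *ifd-2*, 2.42 for *ifb-2* and 0.11 for *ifd-1*, against 0.32 for *ifd-1* with all libraries (edgeR). The part of these differences between libraries in the brush border values was not tested.

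**Figure D5:**
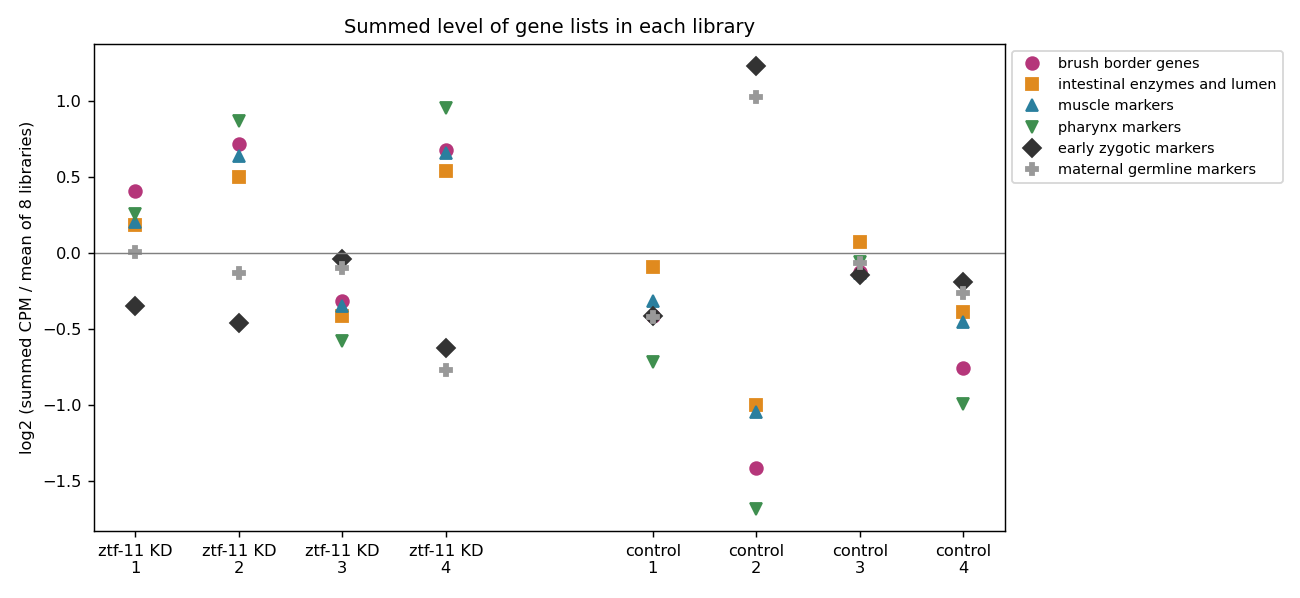
Summed CPM of 6 gene lists in each library, as log2 of the ratio to the mean of the 8 libraries, with *ztf-11* KD libraries on the left and control libraries on the right. Brush border genes, muscle markers and pharynx markers are high in *ztf-11* KD replicates 1, 2 and 4 and lowest in control replicate 2, where the early zygotic (989 CPM) and maternal germline (1689 CPM) sums are highest. Most of the brush border sum is *act-5*.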

How the data were processed

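Whole-embryo RNA was sequenced from 4 *ztf-11* KD and 4 control cultures. The deposited values are raw counts, made by the authors with featureCounts from uniquely mapped reads after TopHat2 mapping to *ce10*; versions, strand setting and the rule for reads over several transcripts are not given in the sources used here. Identifiers were named with a RefSeq table of WBcel235, which matched 45715 of 50606 transcripts (87.7% of counts); 183 more took names from the study's supplementary table.

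Counts were tested with edgeR 4.0.16 in R 4.3.3: filterByExpr with its minimum count of 10, TMM scaling, robust glmQLFit and glmQLFTest on condition alone, with p values adjusted by Benjamini-Hochberg across the 14328 transcripts tested and a threshold of 0.1. DESeq2 1.42.0 was the first alternative. Others were DESeq2's size factors, library totals alone, other filters, counts summed per gene, a replicate block, a threshold of 0.05, no robust fit and each library left out; DESeq2 and the gene lists without each library, counts without *ifb-2* and the within-library ratios were added after the data were seen. Scripts were tested on simulated data. Depth was 39343105 to 45609675 counts per library, so for abundant transcripts the spread between cultures sets the precision.

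The genes and lists were chosen with earlier results of these data known, and no list was tested as a set. The text names the 8 genes, *ztf-11*, members of each list mainly from the 4 with the highest mean CPM, and the 6 named transcripts whose profile was most like that of the set. *let-413*, *ajm-1*, *nrfl-1*, *frm-1*, *pgp-3*, *gtl-1*, *fat-2*, *end-1*, *end-3* and the markers at 0 fall outside that rule and were named after their values were seen. Protein and promoter sequences were not used here, so the planned descriptions of protein identity and promoter motifs were not made.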

Additional observations from a re-analysis of the deposited data

How the results depend on the processing

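Besides *eps-8*, no tested brush border gene changed sign under any of the alternatives. The log2 fold change of *eps-8* ranged between -0.082 and 0.12 in edgeR and between -0.097 and 0.11 in DESeq2 when single libraries were left out. DESeq2 called 444 transcripts and 3 of the brush border genes, and *ztf-11* (log2 fold change -2.001, adjusted p = 1.18e-07). With no filter beyond 1 count edgeR called 6 transcripts, *ztf-11* among them (-1.98), and 0 brush border genes. With at least 10 counts in every library the median was 0.58, since *ifb-2* was no longer tested. Without single libraries edgeR called 0 to 3 transcripts and 0 brush border genes, with a *ztf-11* log2 fold change between -2.13 and -1.70. DESeq2 called 68 to 1685 transcripts and 0 to 4 brush border genes, with *ztf-11* between -2.16 and -1.69. Where it called 4, *ifb-2*, with few counts, was among them. The log2 fold change of *act-5* lay between 0.90 and 1.35 in edgeR without single libraries, and that of *ifd-2* between 0.65 and 0.95. The causes were not tested.

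The replicate numbers gave no sign of pairing the cultures: the deviations of same-numbered libraries had correlations of 0.01, -0.30, -0.64 and -0.21. With a replicate block edgeR called 0 brush border genes, the median was 0.85, and *act-5* had a log2 fold change of 1.16 (adjusted p = 0.71). *ifb-2*, *ifc-2* and *erm-1* had at most 180 counts in a library, and counting error is largest for them.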

Other observations

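The transcripts with a gene name whose log2 level across the 8 libraries was most like the mean profile of the brush border genes were D1005.4, R04B3.3, B0334.13, F35E12.9, *egl-20* and *cgef-1*, with Pearson correlations of 0.99 for each over 8 libraries that share their scaling and groups. *egl-20*, a Wnt ligand gene, had a log2 fold change of 0.61, and *cgef-1* one of 0.33. No test was made of these likenesses.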
